A study of Sus scrofa with 10 samples.

Results

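CXCL12, a secreted chemokine, and the receptors that bind it, CXCR4 and ACKR3, were followed through every cell of the developing and postnatal pig medial entorhinal cortex (MEC), the part of the temporal lobe that holds grid cells. These are 3 of the 22452 genes in the count tables. They were taken by gene symbol and by no rule on their values, but with earlier results of these data known. The tables held 11149 UMIs (unique molecular identifiers, each standing for 1 captured transcript) of CXCL12, 16683 of CXCR4 and 3479 of ACKR3 in 28229 cells or nuclei. The question was which cells carried the ligand, which carried the receptors, and how far the libraries agreed on it.

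CXCL12 is known in the developing brain as a signal from the meninges (the connective tissue sheath of the brain) and from blood vessels, and it binds to proteoglycans near the cells that release it. CXCR4 is a G-protein-coupled receptor that migrating Cajal-Retzius cells, cortical interneurons and cerebellar granule cell precursors use to keep to their paths. ACKR3 is an atypical receptor that couples to arrestins in place of G proteins, and it takes up CXCL12 and so removes it from the space around the cell.

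The tissue came from fetuses of both sexes, crosses of Danish Landrace/Yorkshire sows with Duroc boars, and from postnatal pigs called Adult in the labels. The study's text speaks of postnatal day 75 in some places and of adult sows in others, so the age of the Adult libraries is not settled here. The labels name no genotype or treatment for any animal. Whole cells were dissociated with papain and loaded fresh, while nuclei were taken from snap-frozen tissue and sorted on the DNA stain 7-AAD. The 10 libraries fall into 6 groups. At embryonic day 50 (E50) there was 1 library of whole cells, from 3 pooled brains. At E60 there were 3 libraries of whole cells, from 1, 1 and 2 brains, and at E70 there were 3, from 2, 1 and 1 brains by the labels, with which the study's own list of libraries differs for E70_1 and E70_3. Nuclei at E70 (E70_nc), Adult whole cells (Adult_1) and Adult nuclei (Adult_nc) were 1 library each, from 1 brain. Libraries are named by stage and replicate, so that E60_3 is the third E60 library. They held 493 to 8171 cells and 2336865 to 55755512 UMIs. Only E60 and E70 whole cells were replicated, so p-values between stages measure the spread between these 6 libraries. Those between classes come from 1 fit over all classes and libraries, of every stage and of cells and nuclei alike, so their spread draws also on libraries that held only 1 of the classes compared.

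Cells were grouped into classes by clusters and marker genes, with the members themselves kept out of the genes that built the clusters. Each class name below is to be read as "-like", since it rests on markers alone. The fibroblast class was led by COL1A1, COL1A2 and COL3A1, the endothelial class by PECAM1, FLT1 and EGFL7, the mural class (pericytes and smooth muscle of vessel walls) by RGS5, ACTA2 and TAGLN, and the microglia class by the complement genes C1QA, C1QB and C1QC. Interneurons were named from markers that included DLX1, DLX5, GAD1 and GAD2, and Cajal-Retzius cells from RELN, CALB2 and LHX1. CLDN5, a further endothelial marker, was not matched by name. In all, 4090 cells were left unnamed. Cells with at least 2 UMIs of both endothelial and mural markers formed a class of their own with a median depth of 15910 UMIs, against 8137 in endothelial and 5875 in mural cells.

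E60_1 and E60_2 stood apart from the other libraries. They held 1 and 0 excitatory neurons and 0 interneurons, against 1376 and 247 in E60_3. With E50_1 they held most cells with the markers of midbrain progenitors (PAX3, PAX7 and EN2, while EN1 was near 0 at 0.29 CPM), of cerebellar granule cells and of Purkinje cells. The share of tissue outside the MEC in them was not tested. Levels are given by library, and class differences of the members to which these libraries contributed both classes are given without them as well, except fibroblast minus mural, which could then not be fitted. Of the barcodes, 449 occurred in more than 1 library, in 901 cells.

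The sequences just before the 3 genes are shown because they give each gene's place in the genome and the motifs near its start. In the Sscrofa11.1 build, CXCL12 lies at chr14:91516383-91543857, with 4 exons in each of 4 RefSeq transcripts. CXCR4 lies at chr15:15663652-15666706 and ACKR3 at chr15:136370457-136382559, each with 2 exons. All 3 are on the plus strand. The 200 bases before each RefSeq gene start are given 5′ to 3′, from chr14:91516183-91516382, chr15:15663452-15663651 and chr15:136370257-136370456, with capitals for TATAAA (the TATA box) and GGGCGG (the SP1 box) on either strand.
CXCL12: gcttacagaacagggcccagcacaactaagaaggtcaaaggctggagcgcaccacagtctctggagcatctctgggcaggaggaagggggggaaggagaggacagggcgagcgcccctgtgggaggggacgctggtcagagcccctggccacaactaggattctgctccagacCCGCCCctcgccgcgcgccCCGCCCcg
CXCR4: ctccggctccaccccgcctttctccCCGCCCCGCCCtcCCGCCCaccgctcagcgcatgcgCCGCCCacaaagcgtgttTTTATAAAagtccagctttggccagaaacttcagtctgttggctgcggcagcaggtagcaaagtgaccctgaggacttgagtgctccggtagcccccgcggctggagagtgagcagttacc
ACKR3: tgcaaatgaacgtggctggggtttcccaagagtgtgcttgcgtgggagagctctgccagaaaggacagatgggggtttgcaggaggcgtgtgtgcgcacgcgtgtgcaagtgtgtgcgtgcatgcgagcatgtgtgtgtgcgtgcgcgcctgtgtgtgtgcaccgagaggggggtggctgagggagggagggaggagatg
The CXCL12 window held 2 SP1 boxes, at 27 and 8 bases before the start. The CXCR4 window held 4 SP1 boxes and 2 TATA box matches that overlap each other, at 121 and 119 bases before the start. The ACKR3 window held neither motif, but 4 matches to CANNTG (the E-box) and 1 to ACGTG (the core of the hypoxia element). Over the 19556 windows of the same length before all genes, 43.8% held an SP1 box, 7.69% a TATA box, 53.3% an E-box and 15.7% the hypoxia core, and CCAAT, found in none of the 3, was in 27.7%. GC content was 67% for CXCL12, 63% for CXCR4 and 62% for ACKR3, against a median of 59%.

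CXCL12 was found mostly in fibroblasts and in endothelial cells. The fibroblast, endothelial, mural and mixed endothelial and mural classes made up 9.73% of all cells and held 84.9% of the CXCL12 UMIs. Endothelial cells held 32.7%, fibroblasts 26.8% and the mixed class 24.6%, while mural cells held 0.86%, close to their 0.99% of all UMIs. In the whole-cell libraries they held from 69.7% (E50_1) to 95.3% (Adult_1) of them. In nuclei the share was 15% at E70 and 7.69% in the Adult library, from 20 and 26 CXCL12 UMIs in all. The 4 classes together held 11.2% of CXCR4 and 22.2% of ACKR3 UMIs, the latter 33.9% without E50_1.

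**Figure D1:**
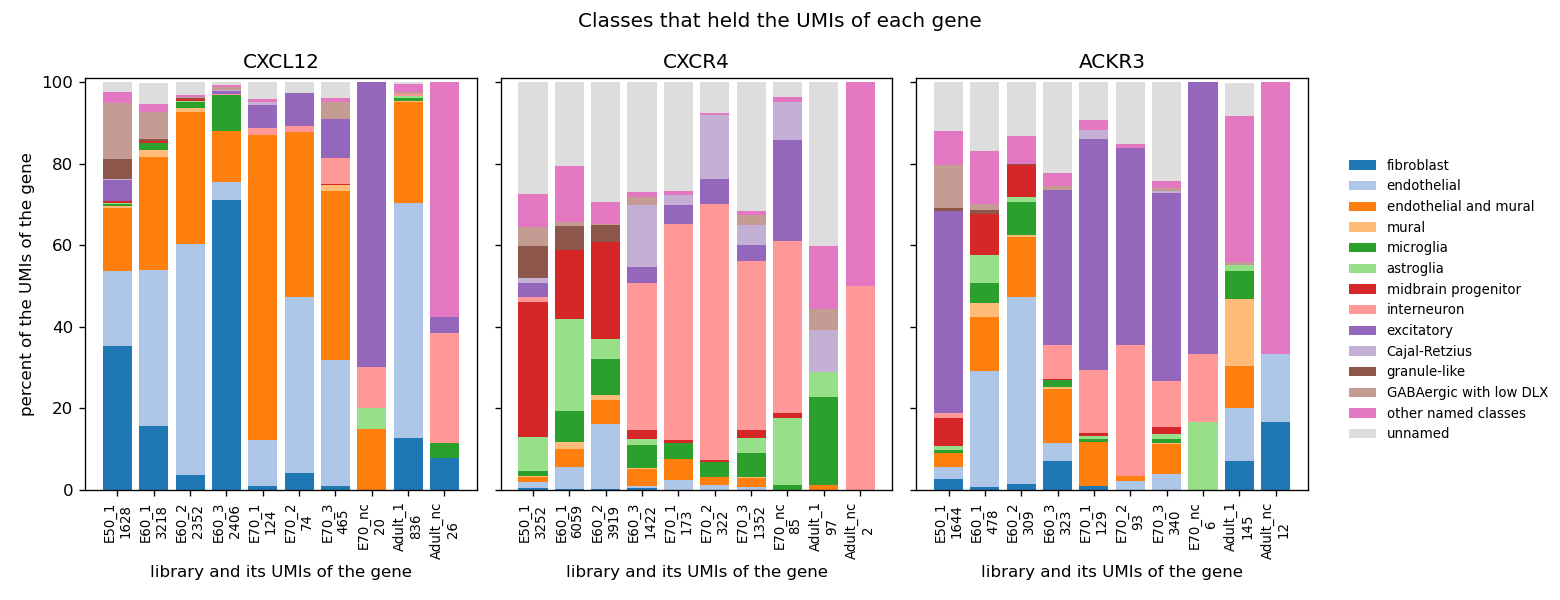
Percent of the UMIs of CXCL12, CXCR4 and ACKR3 (y axis) that came from each class in each library (x axis, with the number of UMIs of the gene under its name). Fibroblast and vascular classes (blue and orange) fill 69.7% to 95.3% of the CXCL12 bars of whole-cell libraries, while CXCR4 is spread over more classes, led by unnamed cells (25.3% over all libraries) and midbrain progenitors (18.6%), and excitatory neurons hold 35% of ACKR3 over all libraries and 21.9% without E50_1.

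In fibroblasts, CXCL12 stood at 338 CPM (UMIs of the gene per 1000000 UMIs of the class in that library) in E50_1, 5660 in E60_1, 475 in E60_2, 1075 in E60_3 and 21.97 in Adult_nc. The mean was 1514 ± 2349 CPM (SD, n = 5 libraries with at least 20 cells of the class). E60_1 stood far above the others with only 23 fibroblasts, and Adult_nc far below them. The Adult_nc cells came almost all from 1 cluster of 119 cells led by BNC2, SLC47A1 and TBX15, in which collagen markers were low: COL1A1 stood at 21.97 CPM in Adult_nc against 1643 to 10930 CPM in the E50 and E60 libraries, and LUM at 0. The 13 fibroblasts of Adult_1, too few for the mean, held CXCL12 at 480 CPM (95% exact Poisson interval 393 to 581). Intervals on levels and shares cover counting error only.

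Endothelial CXCL12 was more even between libraries. It stood at 176 CPM in E50_1, 259 in E60_1, 181 in E60_2, 206 in E60_3, 311 in E70_3 and 453 in Adult_1, with a mean of 264 ± 106 CPM (SD, n = 6). The Adult library was the highest. Mural cells lay below every endothelial value, at 23.6 CPM in E50_1, 52.7 in E60_1, 64.2 in E60_2 and 8.06 in Adult_1. Cells with both endothelial and mural genes stood at 131 to 369 CPM over 6 libraries, inside the range of endothelial cells at the upper end and below it at the lower end.

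At least 1 CXCL12 UMI was found in 66.9% of endothelial cells (95% exact binomial interval 64.4 to 69.4), in 59.3% of fibroblasts (54.5 to 63.9) and in 11.08% of mural cells (7.84 to 15.1). Microglia, which should lack the gene, gave 1.87% at a median of 5113 UMIs per cell, against 8137 in endothelial cells and 9643 in fibroblasts. The pooled share of fibroblasts holds the 118 nuclei of Adult_nc, of which 1.69% had a UMI. In the E50 and E60 libraries 80.2% to 85.7% of fibroblasts had one, against 63.0% to 85.3% of endothelial cells. With every cell thinned to 1000 UMIs, which kept 337 of 437 fibroblasts and left out nuclei of Adult_nc alone, the pooled shares were 20.1% in endothelial cells, 35.8% in fibroblasts, 2.84% in mural cells and 0.58% in microglia. The transcript was also uneven within a class. The tenth of cells with most CXCL12 held 27.4% to 44.8% of the CXCL12 UMIs of fibroblasts in the fetal libraries and 36.0% to 42.3% of those of endothelial cells, and a single fibroblast of E60_3 held 95.

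In the main fit the differences in CXCL12 between these classes passed the test, but that of fibroblasts from endothelial cells rested on E60_1. All class differences are log2 differences from edgeR's quasi-likelihood test on UMIs summed by library and class, with the library in the fit and p-values adjusted over 16264 genes. CXCL12 was lower in mural than in endothelial cells, at -2.99 ± 0.70 (SE, 4 libraries with both classes, adjusted p = 6.6e-04), in a contrast in which 18.8% of all genes were called. It was higher in fibroblasts than in mural cells by 4.73 ± 0.75 (3 libraries, adjusted p = 1.5e-06), where 9.86% of genes were called. The difference of mural from endothelial cells was -2.26 (adjusted p = 0.051) with sums of at least 50 cells, and -4.26 without E60_1 and E60_2 (adjusted p = 4.8e-03). Between fibroblasts and endothelial cells the difference was 1.75 ± 0.57 (4 libraries, adjusted p = 0.017), where 22% of genes were called. That last call rested on E60_1, since without it the difference was 0.47 (adjusted p = 0.69), and without E60_1 and E60_2 it was 0.41 (adjusted p = 0.82).

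Against the neural classes the distance was larger. CXCL12 was 6.74 ± 0.78 higher in endothelial cells than in astroglia (5 libraries, adjusted p = 1.9e-11), in a contrast with 40.3% of genes called, and 6.28 higher without E60_1 and E60_2. Astroglia stood at 0 to 9.12 CPM, excitatory neurons at 1.61 to 6.26 CPM and erythroid cells at 0 to 3.88 CPM. Interneurons ranged from 1.26 CPM in E70_2 to 45.2 CPM in Adult_nc, the latter from 7 UMIs in 47 nuclei. None of these differences between neural classes passed the test. Interneuron minus excitatory was 1.15 ± 0.75 (adjusted p = 0.71), excitatory minus astroglia 0.83 ± 0.95 (adjusted p = 0.57) and interneuron minus astroglia 1.99 (adjusted p = 0.15). The last was called without E60_3, at 2.69 (adjusted p = 0.022), and all of them were below 0 when each library was clustered alone.

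2 further groups of cells carried CXCL12 at a middle level. The class with GABAergic markers and low DLX genes (DLX1 at 6.78 CPM against 222 CPM in interneurons), led by PENK, SST and TAC1 and with SLC17A6, a marker of glutamatergic cells, at 62.8 CPM, held CXCL12 at 12.0 to 64.1 CPM over 4 libraries, with a UMI in 12.6% of 1477 cells. In E50_1 the tenth of these cells with most CXCL12 held 97.3% of the class's CXCL12 UMIs. Such a share is bound to be high where few cells have a UMI. Among cells with granule cell markers, the cluster led by NEUROD1 and CBLN1 stood at 58.2 CPM (47.1 to 71.1), with a UMI in 18.8% of its 256 cells, while the dividing cluster led by SCT, UBE2C and CENPF stood at 5.31 CPM (2.43 to 10.1). Both levels are pooled over libraries.

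Microglia gave 97.5 CPM of CXCL12 in E60_3 and 0 to 11.2 CPM in the other 7 libraries. Of the E60_3 UMIs, 202 lay in 12 cells of 1 cluster with microglial genes, and the 8 of them that had CXCL12 all had COL1A1 or COL3A1 as well. Microglia minus astroglia was 2.77 ± 0.86 (6 libraries, adjusted p = 6.5e-03) where 39% of genes were called, but 1.45 without E60_3 (adjusted p = 0.14), 2.32 without E60_1 and E60_2 (adjusted p = 0.077) and 0.28 without that cluster and an erythroid cluster with astroglial genes (adjusted p = 0.84). Microglia minus endothelial was -3.97 ± 0.57 (6 libraries, adjusted p = 1.4e-08), where 29.3% of genes were called, and kept its call without E60_3 and, at -3.96, without E60_1 and E60_2.

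**Figure D2:**
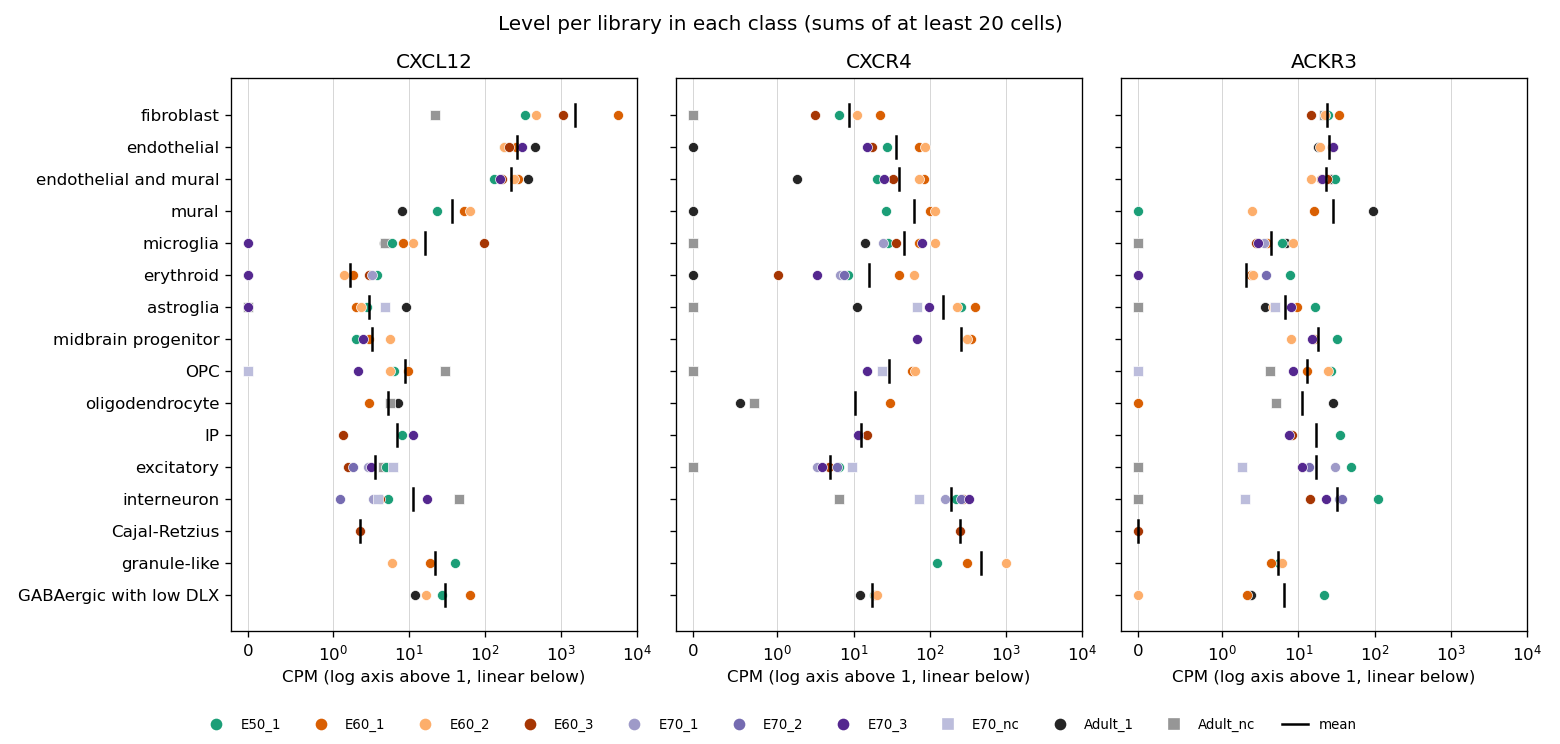
Level of CXCL12, CXCR4 and ACKR3 (CPM, x axis, linear from 0 to 1 and logarithmic above) in each class (y axis), with 1 point per library of at least 20 cells of the class and a bar at their mean. CXCL12 lies above 100 CPM in endothelial cells and in fetal fibroblasts, and its mean is below 10 CPM in most neural classes. CXCR4 spans from 0 to 1002 CPM, and ACKR3 reaches no more than 112 CPM in any class.

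CXCR4, the signalling receptor, had its highest levels in classes of neural cells. Cells with granule cell markers stood at 126 CPM in E50_1, 311 in E60_1 and 1002 in E60_2, the last from 31 cells. Their mean over libraries was the highest, but pooled over cells their 233 CPM lay below midbrain progenitors (302), astroglia (278.5), interneurons (248.0) and Cajal-Retzius cells (237). Midbrain progenitors stood at 309 CPM in E50_1, 345 in E60_1, 313 in E60_2 and 67.7 in E70_3. These classes came almost wholly from E50_1, E60_1 and E60_2, the libraries with genes of midbrain and cerebellum. Of the midbrain progenitors, 1158 came from a cluster led by genes of dividing cells (PBK, CCNB1 and UBE2C), at 288 CPM. Another 454 came from a cluster with DBX1 and PAX3 among its leading genes, at 339 CPM. Both levels are pooled over libraries. Within the granule class, the dividing cluster held CXCR4 at 440 CPM (409 to 473) and the NEUROD1 and CBLN1 cluster at 17.2 CPM (11.4 to 24.8), pooled over libraries. Within E50_1 they stood at 277 and 19.6 CPM and within E60_1 at 509 and 10.9 CPM, while the 31 cells of E60_2 were all of the dividing cluster. CXCL12 had the reverse order in both libraries, at 7.25 and 63.8 CPM in E50_1 and 2.89 and 43.8 CPM in E60_1.

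Interneurons carried CXCR4 in all fetal libraries that held at least 20 of them. The level was 225 CPM in E50_1, 273 in E60_3, 158 in E70_1, 255 in E70_2, 327 in E70_3, 72.2 in E70_nc and 6.45 in Adult_nc. Fetal whole cells thus stood at 158 to 327 CPM, the E70 nuclei below all of them and the Adult nuclei, with 1 CXCR4 UMI in 47 nuclei, lowest. Among nuclei the E70 library thus stood above the Adult one, whose interval reaches 36.0 CPM. With 1 library each and too few interneurons in Adult whole cells, age and library cannot be told apart in that low value. A CXCR4 UMI was found in 47.7% of interneurons (44.5 to 50.9), and in 18.8% after thinning to 1000 UMIs. The share ranged from 53.7% to 63.0% in fetal whole cells. In erythroid cells, used as the background, it was 9.49% at a median of 5144 UMIs against 5507 in interneurons, and 2.89% after thinning. Most of that background came from an erythroid cluster of 442 cells that also held astroglial markers at 2822 CPM and CXCR4 at 122 CPM, while the largest erythroid cluster stood at 2.92 CPM.

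The clusters of interneurons differed in CXCR4. The cluster led by NXPH1, VWC2 and KCNC2 stood at 393 CPM (371 to 417), with a UMI in 60.3% of 544 cells, and the cluster led by DLX1, DLX5 and ERBB4 at 108 CPM (96.8 to 121), with a UMI in 31.8% of 431 cells. Their median depths were 5256 and 6002 UMIs. After thinning, the shares were 26.6% and 8.76%. Within libraries the first cluster was above the second in E60_3 (518 and 116 CPM), E70_1 (291 and 85.3 CPM), E70_2 (424 and 26.6 CPM) and E70_3 (561 and 125 CPM), but not in E70_nc (69.8 and 84.2 CPM) or E50_1 (208 and 237 CPM in 12 and 15 cells). The intervals of the pooled values cover counting error alone, and ACKR3 lay closer together in the same clusters, at 28.6 CPM (22.7 to 35.5) and 18.8 CPM (14.2 to 24.4).

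Excitatory neurons were nearly without CXCR4. They ranged from 0 CPM in Adult_nc to 9.39 CPM in E70_nc, with 6.46 CPM in E50_1, 4.74 in E60_3 and 3.33 to 6.11 in the E70 whole-cell libraries. A UMI was found in 3.43% of 5944 cells, below the erythroid background but above the 1.71% of the largest erythroid cluster. CXCR4 was 5.17 ± 0.39 higher in interneurons than in excitatory neurons (7 libraries, adjusted p = 6.7e-18), a contrast in which 2.71% of genes were called, and the groups of levels did not overlap apart from Adult_nc, at 6.45 CPM. It was 4.26 ± 0.55 higher in interneurons than in intermediate progenitors (IP, the dividing EOMES-positive precursors of excitatory neurons; 3 libraries, adjusted p = 3.1e-08), where 7.11% of genes were called. IP stood at 11.3 to 14.95 CPM. IP minus excitatory was 0.91 ± 0.57 (3 libraries, adjusted p = 0.41), with 7.56% of genes called, and its sign depended on the clustering (-0.39 at Louvain resolution 0.8, adjusted p = 0.80).

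Cajal-Retzius cells, the first neurons of the cortical surface, were few, and most of them carried CXCR4. Of 67 cells in 8 libraries, 60 had a UMI, or 89.6% (79.7 to 95.7), at a median depth of 26900 UMIs. After thinning the share was 19.9%, close to the 18.8% of interneurons. Only E60_3 held 20 or more of them, with CXCR4 at 248 CPM (217 to 284) in 30 cells. E50_1 gave 275 CPM in 12 cells, E70_3 274 CPM in 9, E70_2 265 CPM and E70_nc 320 CPM in 5 each, and E70_1 31.8 CPM in 3. The name rests mainly on RELN in the 5 nuclei of E70_nc, where LHX1, LHX5 and TP73 were at 0 UMIs and CALB2 gave 3, or 120 CPM against 858 to 1877 CPM in the fetal whole-cell libraries. The single cell of Adult_1 stood at 166 CPM, and the 2 nuclei of Adult_nc had 0 UMIs. ACKR3 was at 0 UMIs in the 30 cells of E60_3, which allows up to 10% of cells with a UMI, and CXCL12 gave 2 UMIs there. With 1 library above the minimum this class was not tested, since a contrast was set to need more than 1 library with both classes.

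Astroglia (astrocytes and radial glia) also carried CXCR4. The level was 259 CPM in E50_1, 396 in E60_1, 226 in E60_2, 97.0 in E70_3, 68.3 in E70_nc, 10.9 in Adult_1 and 0 in Adult_nc. E50_1, E60_1 and E60_2, the libraries with cells of midbrain and cerebellum, were thus above both E70 libraries, and the Adult libraries were lowest, with 23 cells in Adult_nc. The 17 astroglia of E60_3, too few for the test, stood at 145.5 CPM (93.2 to 216), which reaches into the interval of E70_3 (71.5 to 129). CXCR4 was lower than in astroglia in excitatory neurons, at -4.23 ± 0.41 (4 libraries, adjusted p = 2.8e-13; 26.9% of genes called) and in IP, at -3.33 ± 0.55 (2 libraries, adjusted p = 8.8e-06; 10.3% of genes called). It was also lower in oligodendrocyte precursors (OPC), at -2.94 ± 0.41 (6 libraries, adjusted p = 1.3e-07; 11.2% of genes called), and -3.46 without E60_1 and E60_2. Interneuron minus astroglia was 0.94 ± 0.36 (4 libraries, adjusted p = 0.046; 23.3% of genes called). This small difference lost its call when any 1 of 8 of the 10 libraries was left out, and its adjusted p lay between 5.9e-03 and 0.27 over the alternatives.

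Vessel cells and fibroblasts carried less CXCR4. Endothelial cells had 27.5 CPM in E50_1, 71.4 in E60_1, 85.7 in E60_2, 17.6 in E60_3, 15.1 in E70_3 and 0 UMIs in the 65 cells of Adult_1, which allows a share of up to 4.62% of cells with a UMI and sets no limit on cells that express the gene. E60_1 and E60_2 were the highest and Adult_1 the lowest. Mural cells showed the same pattern, with 27.0, 102, 119 and 0 CPM in E50_1, E60_1, E60_2 and Adult_1. Fibroblasts stood at 0 to 22.5 CPM and 3.20% of them had a UMI, below the erythroid background but above the 1.71% of the largest erythroid cluster. CXCR4 was lower in endothelial cells than in astroglia, at -2.28 ± 0.36 (5 libraries, adjusted p = 1.6e-07). It was lower in fibroblasts than in endothelial cells, at -2.39 ± 0.53 (4 libraries, adjusted p = 2.6e-04), and than in mural cells, at -2.69 ± 0.58 (3 libraries, adjusted p = 4.2e-04). Without E60_1 and E60_2 the first of these was -2.77 (adjusted p = 6.9e-06) and the second -2.04 (adjusted p = 0.029). The call in fibroblasts against mural cells was lost when vascular clusters were kept whole (-1.59, adjusted p = 0.11). Mural minus endothelial was 0.30 ± 0.42 (adjusted p = 0.72), -0.066 without E60_1 and E60_2, and -0.85 without the split of vascular clusters by marker UMIs (adjusted p = 0.28).

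Microglia held CXCR4 between 0 CPM in Adult_nc and 117 CPM in E60_2, with 14.3 CPM in Adult_1. CXCR4 was 1.01 ± 0.35 higher in microglia than in endothelial cells (6 libraries, adjusted p = 0.021) and lower than in astroglia, at -1.27 ± 0.34 (6 libraries, adjusted p = 1.6e-03). The first of these lost its call without Adult_1 (0.77, adjusted p = 0.067) or without E70_3 (0.69, adjusted p = 0.18), and the second without E50_1 (-0.82, adjusted p = 0.073). Without E60_1 and E60_2 they were 1.61 (adjusted p = 7.8e-03) and -1.15 (adjusted p = 0.030).

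2 groups of unnamed cells were rich in CXCR4. A cluster of 1307 cells led by TTR, ADIRF, EDNRB and CNMD, with GFAP and AQP4 among its leading genes, stood at 339 CPM (325 to 354), and 795 of its cells came from E60_1. A cluster of 38 cells led by CD52, LYZ and S100A9, 24 of them from Adult_1, stood at 192 CPM (140 to 258), with a UMI in 57.9% of cells. That is above microglia of Adult_1, at 14.3 CPM.

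ACKR3, the atypical receptor, had a lower highest class mean (31.9 CPM) than CXCL12 (1514) and CXCR4 (479.5), and was more evenly spread. It was not lower in every class. Pooled over cells, excitatory neurons held ACKR3 at 24.5 CPM, CXCL12 at 3.49 CPM and CXCR4 at 5.26 CPM. In interneurons ACKR3 stood at 112 CPM in E50_1, 14.3 in E60_3, 34.4 in E70_1, 37.7 in E70_2, 22.7 in E70_3, 2.00 in E70_nc and 0 in Adult_nc, with a mean of 31.9 ± 38.4 CPM (SD, n = 7). Both libraries of nuclei were lowest, and E50_1, from 27 cells, was highest. Excitatory neurons stood at 49.3 CPM in E50_1, 11.01 in E60_3, 30.4 in E70_1, 13.8 in E70_2, 11.3 in E70_3, 1.79 in E70_nc and 0 in Adult_nc. The order of libraries was nearly that of interneurons, with E50_1 highest and nuclei lowest. Excitatory neurons, the most numerous named class with 21.1% of cells and 24.0% of all UMIs, held 1218 of 3479 ACKR3 UMIs, or 35%. E50_1 alone gave 816 of the 1218, and without it the share was 402 of 1835, or 21.9%. A UMI was found in 13.4% of excitatory neurons (12.5 to 14.3), in 9.54% of interneurons (7.77 to 11.6) and in 2.36% of microglia, the background. Without E50_1 the order of the neurons turned, at 7.75% of excitatory neurons and 9.07% of interneurons. After thinning, with E50_1 kept in, the shares were 2.27% of excitatory neurons, 1.99% of interneurons and 0.46% of microglia.

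In endothelial cells ACKR3 varied less between libraries than CXCL12 or CXCR4. It stood between 17.8 CPM (Adult_1) and 28.7 CPM (E60_1) in all 6 libraries, with a mean of 24.9 ± 4.96 CPM (SD, n = 6). A UMI was found in 19.2% of endothelial cells (17.2 to 21.3), and in 2.56% after thinning. Fibroblasts ranged from 14.4 to 33.7 CPM (n = 5). Mural cells were split: 0 CPM in E50_1, 2.47 in E60_2, 15.9 in E60_1 and 96.8 in Adult_1, where the class had 37 cells. The mural markers of Adult_1 also differed, with MYH11, a gene of smooth muscle, at 2843 CPM against 3.37 to 5.96 CPM in the other 3 libraries, ACTA2 at 3657 against 412 to 1376 CPM and ABCC9, a gene of pericytes, at 48.4 against 479 to 684 CPM. The part of this make-up in ACKR3 was not tested. Mural minus endothelial was -0.50 ± 0.53 (adjusted p = 0.60), and -1.91 without Adult_1 (adjusted p = 0.013), so that the Adult library decided the call. Without E60_1 and E60_2 it was 0.43 (adjusted p = 0.83).

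Few differences in ACKR3 passed the test. It was 1.77 ± 0.48 higher in endothelial cells than in astroglia (5 libraries, adjusted p = 1.6e-03) and lower in microglia than in endothelial cells, at -2.28 ± 0.43 (6 libraries, adjusted p = 8.4e-06). Both kept their calls without E60_1 and E60_2, at 1.71 and -2.52. Interneuron minus astroglia was 1.80 ± 0.53 (4 libraries, adjusted p = 7.8e-03), but 1.39 without E50_1 (adjusted p = 0.063). Interneuron minus excitatory, in which CXCR4 differed most, was 0.63 ± 0.41 for ACKR3 (7 libraries, adjusted p = 0.70). Fibroblast minus endothelial was -0.43 ± 0.53 (adjusted p = 0.66), and -0.42 without E60_1 and E60_2. Over the 13 class contrasts, which called from 2.71% to 40.3% of all genes, CXCL12 was called in 6, CXCR4 in 11 and ACKR3 in 3. Contrasts share classes and libraries, so these counts are no independent trials.

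**Figure D3:**
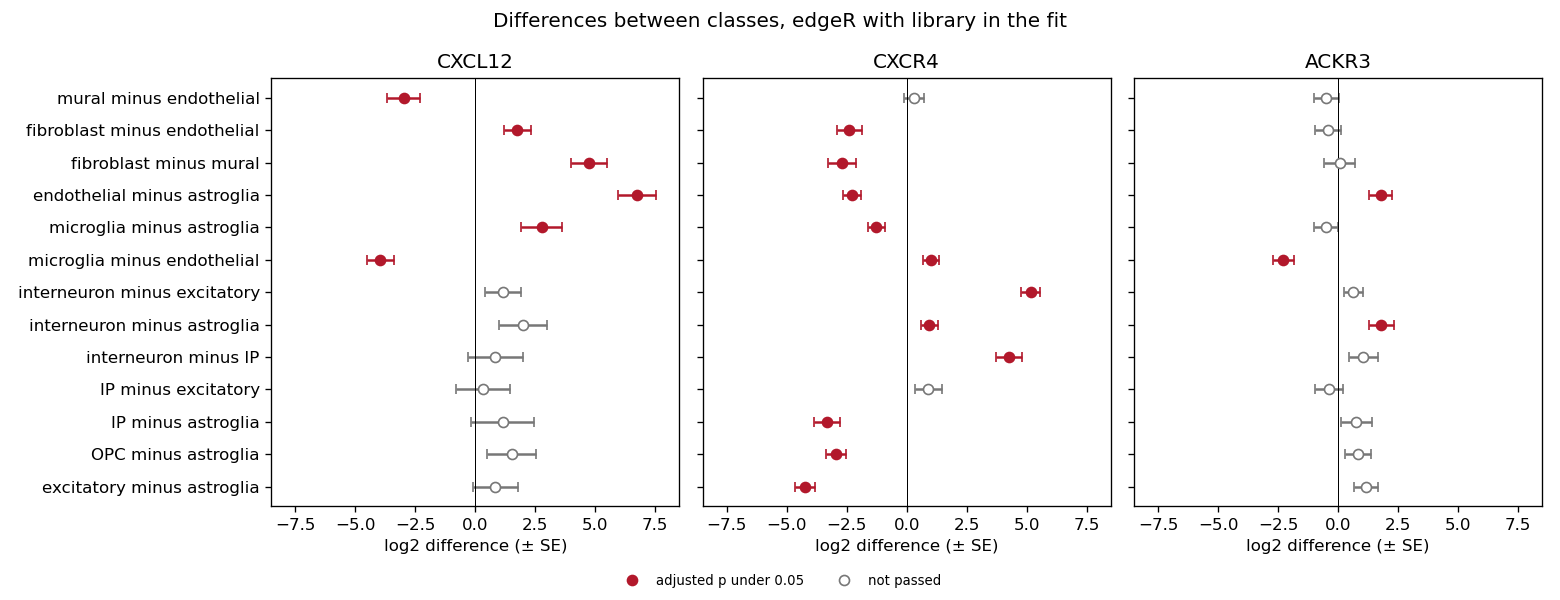
Log2 difference (x axis, ± SE) of CXCL12, CXCR4 and ACKR3 between classes (y axis) from edgeR with the library in the fit, with filled points for an adjusted p under 0.05. CXCL12 runs from -3.97 for microglia minus endothelial to 6.74 for endothelial minus astroglia, the call of fibroblast minus endothelial rests on E60_1, and CXCR4 separates interneurons from excitatory neurons at 5.17.

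Within each gene, classes next to each other in the order of mean levels overlapped in their ranges over libraries, with the exception of CXCL12 between the mixed endothelial and mural class (lowest 131 CPM) and mural cells (highest 64.2 CPM). These ranges take no account of classes measured in the same library, so they alone leave the order of neighbours unresolved. Within each library with enough cells of both, fibroblasts lay above endothelial cells in CXCL12, though the call of that difference rested on E60_1.

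UMIs of 2 members were found in the same cells in some classes. Of the 92 interneurons of fetal whole-cell libraries with an ACKR3 UMI, 60 also had CXCR4, or 65.2%, against 58.0% of all 753 interneurons there. By library the share was above that of all interneurons in E50_1, E60_3, E70_2 and E70_3 and below it in E70_1 (8 of 16 cells against 53.7%), on 7 to 32 cells with ACKR3 each. Cells with both had a median of 6010 UMIs against 5939 in these 753 cells. Of 903 endothelial cells of the same libraries with CXCL12, 340 also had CXCR4, or 37.7%, against 34.9% of all 1366 endothelial cells there, and these were 71.3% of the 477 cells with CXCR4, against 66.1% of all with CXCL12. Their median was 9666 UMIs against 7990 in the class. Endothelial cells with both CXCR4 and ACKR3 numbered 103. In excitatory neurons of these libraries 42 of 791 cells with ACKR3 had CXCR4, or 5.31%, against 3.51% of all, so ACKR3 was mostly seen there without a CXCR4 UMI. The part of depth in these counts was not tested.

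Over whole libraries, with all cells summed, CXCL12 stood at 73.8, 92.5 and 84.2 CPM in E60_1 to E60_3 and at 19.6, 10.6 and 16.7 CPM in E70_1 to E70_3. The groups did not overlap, and the means were 83.5 ± 9.34 and 15.7 ± 4.58 CPM (SD, n = 3 each). E50_1 stood at 29.2, Adult_1 at 115 and the nuclei at 6.47 (E70) and 11.13 CPM (Adult). E70 minus E60 was -2.63 ± 0.32 (SE, adjusted p = 0.12). edgeR called 0% of 16743 genes in this contrast, with 4915 genes at an unadjusted p under 0.05, and DESeq2 called 2833, CXCL12 among them (-2.61, adjusted p = 5.1e-09). In edgeR the call depended on single libraries, since CXCL12 passed without E60_3 (-2.74, adjusted p = 0.015) and without E70_3 (-2.66, adjusted p = 0.013), settings in which 5899 and 1570 genes were called. Without E60_1 and E60_2 it was -2.44 (adjusted p = 0.95). An exact two-sided permutation test over the libraries gave p = 0.1, the smallest it can give for 3 against 3.

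Fibroblast and vascular classes took 12.1%, 26.3% and 7.53% of the cells in E60_1 to E60_3 and 2.43%, 2.11% and 2.37% in E70_1 to E70_3. CXCL12 in all other cells was 15.5, 10.1 and 11.6 CPM at E60 against 2.79, 1.38 and 4.48 CPM at E70. Fewer cells of a class and less RNA per cell cannot be told apart in whole-library sums, and the part of dissection and dissociation in these shares was not tested. Within endothelial cells only E70_3 passed the minimum of cells at E70, and its 311 CPM lay above the 181 to 259 CPM of E60. E60_1 with E70_1 and E60_3 with E70_3 each shared a sequencing pool, and CXCL12 was lower at E70 within both.

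CXCR4 over whole libraries was 139, 154 and 49.8 CPM at E60 and 27.4, 46.3 and 48.5 CPM at E70. The groups met closely, since E60_3, with 49.8 CPM, was just above E70_3. E70 minus E60 was -1.73 ± 0.53 (adjusted p = 0.12), but -0.27 without E60_1 and E60_2, the libraries with midbrain progenitors and granule cells, and -2.14 without E60_3 (adjusted p = 0.017). E50_1 stood at 58.3, Adult_1 at 13.3, E70_nc at 27.5 and Adult_nc at 0.86 CPM. ACKR3 was 10.97, 12.1 and 11.3 CPM at E60 and 20.4, 13.4 and 12.2 CPM at E70 (0.19 ± 0.33, adjusted p = 0.69, and 0.42 without E60_1 and E60_2), with 29.5 CPM in E50_1 and 19.95 CPM in Adult_1. Exact permutation gave p = 0.1 for both receptors.

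**Figure D4:**
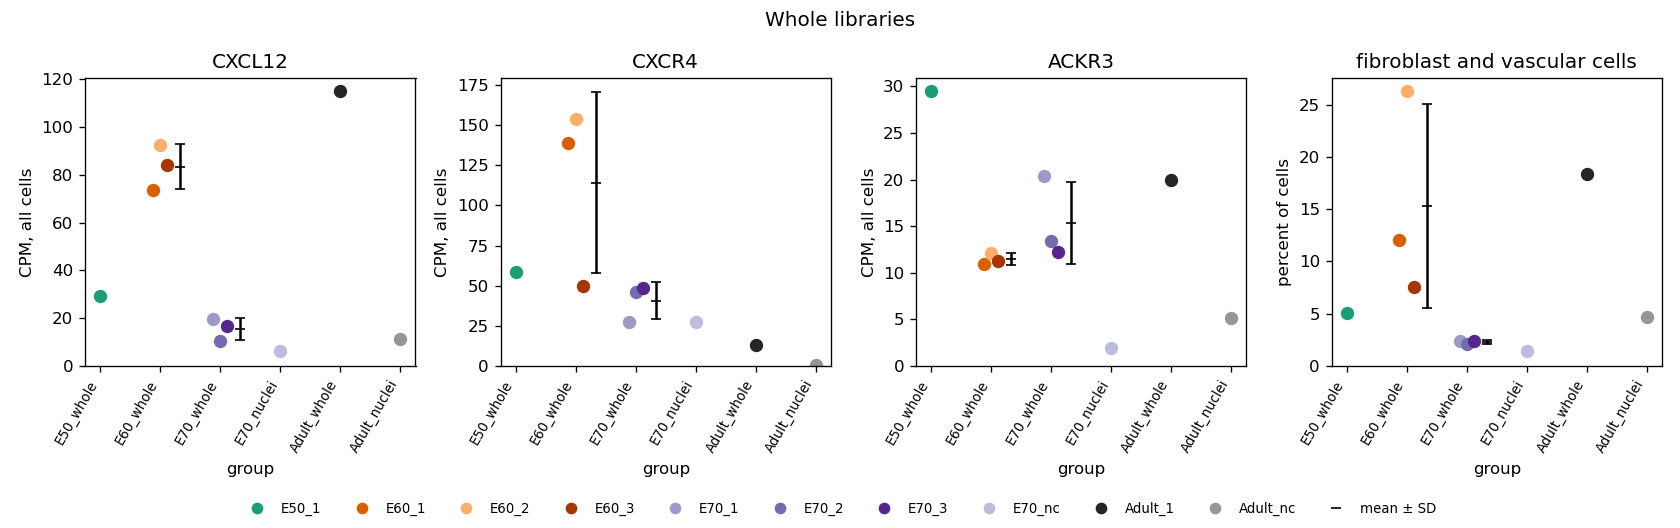
CPM of CXCL12, CXCR4 and ACKR3 over all cells of a library and the percent of cells in the fibroblast and vascular classes (y axes) by group (x axis), with 1 point per library and the mean ± SD where a group has 3. CXCL12 is 73.8 to 92.5 CPM at E60 and 10.6 to 19.6 CPM at E70, and the fibroblast and vascular share is 7.53 to 26.3% and 2.11 to 2.43% in the same groups.

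The comparison of stages within a class was set for vascular, fibroblast, microglial and neural classes, and of these only microglia had enough cells in at least 2 libraries of each stage. Erythroid cells, with enough cells in all 6 libraries, were not tested. In microglia edgeR called 0% of 12574 genes between E60 (3 libraries) and E70 (2 libraries), with 1334 at an unadjusted p under 0.05, and DESeq2 called 299. CXCR4 was 72.7, 117 and 36.5 CPM in E60_1 to E60_3 and 24.6 and 78.5 CPM in E70_1 and E70_3, with a difference of -0.60 ± 0.69 (adjusted p = 0.77). CXCL12 was at 0 UMIs in the microglia of both E70 libraries.

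The other genes of the pathway were taken from a list of 24, of which 23 were found by name and 22 were tested. They cover enzymes that cut CXCL12 (DPP4, MMP2, MMP14), other ligands of these receptors (MIF, CXCL11, CXCL14, ADM), the G proteins GNAI1 to GNAI3, arrestins (ARRB1, ARRB2), receptor kinases (GRK2, GRK3, GRK5, GRK6) and signalling partners. In fibroblasts against endothelial cells 3 were higher and 4 lower, where 22% of all genes were called, with a median of -0.44 against -0.09 over all genes. MMP2, a matrix protease that can cut CXCL12, was 4.08 ± 0.32 higher (adjusted p = 9.1e-18), and MMP14, which activates MMP2, was 1.92 ± 0.36 higher (adjusted p = 1.3e-05). PIK3CG, a lipid kinase that acts after G-protein-coupled receptors, was lower at -3.86 ± 0.75 (adjusted p = 3.2e-05), and CD74, a receptor for MIF, at -2.01 ± 0.64 (adjusted p = 0.014). Summed over all libraries, MMP2, MMP14, DPP4 and ADM each had their highest level in the fibroblast class, at 227, 134, 54.3 and 85.6 CPM.

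In mural against endothelial cells 3 of the 22 were higher and 4 lower, where 18.8% of all genes were called. ADM (adrenomedullin, which ACKR3 also binds) was lower in mural cells at -3.48 ± 0.61 (adjusted p = 6.1e-06), the direction of CXCL12, and GRK3, a kinase that acts on active receptors, was higher at 1.76 ± 0.32 (adjusted p = 1.0e-05). In endothelial cells against astroglia 11 were higher and 4 lower, where 40.3% of all genes were called, with a median of 0.80 against 0.07 over all genes. CXCL14, a chemokine reported to bind CXCR4, was lower at -5.38 ± 0.61 (adjusted p = 7.8e-12) and ADM higher at 5.33 ± 0.61 (adjusted p = 3.0e-11). RGS16, which shortens G-protein signals, was 3.73 ± 0.86 higher (adjusted p = 2.5e-04).

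In microglia against astroglia 13 were higher and 1 was lower, where 39% of all genes were called, with a median of 1.32 against 0.10 over all genes. PIK3CG differed most, at 5.61 ± 0.50 (adjusted p = 1.0e-15), followed by ARRB1 at 3.78 ± 0.63 (adjusted p = 6.2e-07) and PTK2B, a kinase downstream of chemokine receptors, at 3.68 ± 0.40 (adjusted p = 3.0e-12). Against endothelial cells 8 were higher in microglia and 5 lower, where 29.3% of all genes were called. ARRB1 was higher by 4.23 ± 0.64 (adjusted p = 6.4e-08) and ARRB2 by 3.80 ± 0.27 (adjusted p = 1.9e-20). CXCL14 was higher by 3.78 ± 0.59 (adjusted p = 1.6e-07) and PTK2B by 3.14 ± 0.39 (adjusted p = 1.3e-10).

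Among the neural classes, interneurons against excitatory neurons called 0 of the 22 by edgeR, with 5 at an unadjusted p under 0.05 and 1 called by DESeq2, where 2.71% of all genes were called. Against astroglia 3 were higher and 3 lower in interneurons, a share near the 23.3% of all genes called. CXCL14 was lower at -3.68 ± 0.69 (adjusted p = 1.9e-05), MMP14 at -2.79 ± 0.50 (adjusted p = 9.9e-06) and GNAI2, a G protein that CXCR4 couples to, at -1.90 ± 0.30 (adjusted p = 4.6e-07). GRK3 was higher at 1.22 ± 0.27 (adjusted p = 3.3e-04). Excitatory neurons differed from astroglia in 6 of the 22, of which 2 were higher, again near the 26.9% of all genes called, and CXCL14 was lower at -6.19 ± 0.71 (adjusted p = 5.8e-11). CXCL14 had its highest level in astroglia, at 333 CPM. Between E60 and E70 in all cells edgeR called 0 of the 22, with 10 at an unadjusted p under 0.05 and 7 called by DESeq2, and the median was -0.61 against -0.06 over all genes.

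Of 13 other chemokine ligands and receptors, 12 were found by name and 9 were tested. Like the members they were kept out of the genes that built the clusters, but CX3CR1 was a naming marker of microglia. Most calls were between microglia and other classes, with 5 higher and 1 lower against astroglia, where 39% of all genes were called, and 3 higher and 2 lower against endothelial cells, where 29.3% were. Between interneurons and excitatory neurons edgeR and DESeq2 called 0 of the 9, and 0 had an unadjusted p under 0.05. Between fibroblasts and endothelial cells both called 0, with 2 under 0.05 unadjusted. CXCL2 was highest in fibroblasts at 75.6 CPM, and CX3CL1 in endothelial cells at 6.60 CPM.

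The genes whose levels ran closest to each member were taken over the 86 sums of library and class, which share libraries and depth, among 11098 genes. For CXCL12 these were STRA6 (Pearson r = 0.84 on log2 of CPM plus 10), ENSSSCG00000035293 (0.82), NID2 (0.81), ADM (0.81) and COL18A1 (0.81). NID2 and COL18A1 encode proteins of basement membranes. For CXCR4 they were LSM6 (0.69), LSM5 (0.64), ARL6IP1 (0.64), TEX30 (0.63) and NUDT21 (0.62). For ACKR3 they were LMNA (0.64), ERRFI1 (0.62), FOS (0.62), RGS2 (0.61) and PAK4 (0.60), of which FOS is an immediate early gene. Between the members r was 0.35 for CXCL12 with ACKR3, 0.11 for CXCR4 with ACKR3 and -0.13 for CXCL12 with CXCR4.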

How the data were processed

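The authors deposited a table of counts (whole-number UMIs per gene and cell) for each of the 10 libraries, made with Cell Ranger 2.20 on Sscrofa11.1 per the submitters' processing notes from Chromium version 2 chemistry. Reads in introns were counted, per the study's methods, which matters for nuclei. The study's own analysis set erythroid and vascular cells aside, while all 28229 cells of the files were kept here. The members and gene lists were chosen with earlier results of these data known.

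Counts were log-normalised and corrected between libraries with the steps of FastMNN (3000 variable genes, 50 principal components, 20 neighbours). The members, the pathway list and the other chemokines were kept out of the variable genes. Cells were clustered by Louvain at resolution 1.6 into 48 clusters (scanpy 1.11.5). Clusters were named from marker lists, and cells of vascular clusters were split by at least 2 UMIs of endothelial or mural markers. Symbols for 987 of 22452 gene identifiers came from a table of gene names. UMIs were summed by library and class for sums of at least 20 cells (86 sums) and tested with edgeR 4.0.16 (quasi-likelihood, TMM, filterByExpr, R 4.3.3), with library and class in 1 fit and Benjamini-Hochberg adjustment over all genes tested at 0.05. E70 against E60 was tested on sums of all cells and of microglia. The SE of an edgeR difference was taken as its absolute value divided by the square root of the quasi-likelihood F statistic. The fit was tested on simulated data. Levels are CPM with exact Poisson 95% intervals, and shares of cells have exact binomial 95% intervals. A count of 0 was given the limit of 3 cells. Thinning to 1000 UMIs was computed as an expected share and left out shallower cells.

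Named genes were the 3 members, at most 4 called genes of the pathway list per contrast, and the 5 genes of highest correlation with each member. Doublets were kept. Scrublet marked 186 cells but 0 in E60_1 and E60_2, where it did not work, so a cut at the rate expected from the number of cells (1077 cells) was also tried. Other alternatives were DESeq2 1.42.0, no filter on low counts, sums of at least 50 cells, clusters of each library alone, Louvain resolution 0.8, single libraries left out, nuclei left out and the replicate block. Depth per library, 2336865 to 55755512 UMIs, sets the precision, and levels in nuclei rest on few UMIs.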

Additional observations from a re-analysis of the deposited data

How the results depend on the processing

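The 46 tested results (all class contrasts of the members, the stage comparisons and their counts of genes) were computed again under each alternative that could be fitted, which gave 821 values, and 751 of these kept the direction and the side of the threshold (or a count within 1.5 times). The named genes of the pathway list were not part of this. Leaving out Scrublet's calls, shared barcodes or the filter on low counts changed none of the class contrasts. Without nuclei CXCR4 in interneuron minus astroglia was 0.99, no longer called. ACKR3 in fibroblast minus mural, close to 0, turned to -0.028 without nuclei, -0.040 without doublets at the expected rate, -0.12 with clusters of each library alone and -0.26 with no vascular split. At Louvain resolution 0.8, uncalled differences of IP minus excitatory turned to 0.29 (ACKR3), -0.72 (CXCL12) and -0.39 (CXCR4). The alternatives on expected doublets, the vascular split, shared barcodes, clusters 22 and 44, and E60_1 and E60_2 left out of the stage fits were chosen after seeing the data. Where a call was lost the cause was not tested.

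CXCR4 in interneuron minus astroglia also lost its call with DESeq2 (0.80), sums of at least 50 cells (0.97), no E60_1 and E60_2 (0.68), no vascular split (0.93) and no clusters 22 and 44 (0.84). With clusters of each library alone, calls were lost for ACKR3 in interneuron minus astroglia (1.16), CXCL12 in microglia minus astroglia (1.46) and CXCR4 in microglia minus astroglia (-0.88), and CXCR4 between stages in microglia turned to 0.10. There ACKR3 in microglia minus astroglia was called (-1.49), and uncalled values turned for CXCL12 in IP minus astroglia (-6.79), IP minus excitatory (-6.52), excitatory minus astroglia (-0.27), interneuron minus astroglia (-0.53) and interneuron minus excitatory (-0.25), and for CXCR4 in IP minus excitatory (-0.48). Without E60_1 and E60_2, CXCL12 was 0.41 in fibroblast minus endothelial and 2.32 in microglia minus astroglia, and in mural minus endothelial ACKR3 turned to 0.43 and CXCR4 to -0.066. Without clusters 22 and 44, CXCL12 was 0.28 in microglia minus astroglia and was called in interneuron minus astroglia (2.15). Sums of at least 50 cells gave -0.17 for CXCL12 in IP minus excitatory, -2.26 for CXCL12 in mural minus endothelial and 0.85 for CXCR4 in microglia minus endothelial, and no vascular split gave -1.59 for CXCR4 in fibroblast minus mural and -0.85 in mural minus endothelial. DESeq2 gave calls for CXCL12 (-2.61) and CXCR4 (-1.70) between stages in all cells, with 2833 genes, and for CXCL12 in microglia (-6.71), with 299 genes.

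Leaving out 1 library at a time, run for contrasts in which the library held either class, CXCL12 ranged from 0.47 to 2.11 in fibroblast minus endothelial, 3.58 to 5.37 in fibroblast minus mural, -3.52 to -2.49 in mural minus endothelial, 6.30 to 6.95 in endothelial minus astroglia, 1.45 to 3.45 in microglia minus astroglia, -5.45 to -3.50 in microglia minus endothelial, -0.12 to 0.64 in IP minus excitatory and 1.14 to 2.69 in interneuron minus astroglia. CXCR4 ranged from 4.86 to 5.58 in interneuron minus excitatory, 4.05 to 4.49 in interneuron minus IP, 0.67 to 1.42 in interneuron minus astroglia, -1.56 to -0.82 in microglia minus astroglia and 0.69 to 1.28 in microglia minus endothelial. ACKR3 ranged from 1.39 to 2.01 in interneuron minus astroglia, -0.34 to 1.33 in fibroblast minus mural and -1.91 to -0.035 in mural minus endothelial. Between stages in all cells CXCL12 ranged from -2.76 to -2.44, CXCR4 from -2.14 to -1.36 and the number of genes called from 0 to 5899. In microglia the number ranged from 0 to 161, the latter without E70_3. A group left with 1 library was taken to vary like the other.

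The replicate numbers that E60 and E70 share were not taken to pair the libraries. Numbers 1 and 3 each shared a sequencing pool and number 2 did not. Same-numbered deviations correlated at -0.14, 0.04 and -0.09, and 1 of 3 E60 libraries correlated best with its own number. With the replicate block, CXCL12 was -2.65 (adjusted p = 0.27), CXCR4 -1.60 and ACKR3 0.18 in all cells, with 0 genes called. In microglia CXCL12 was -10.4 with 3 genes called. Of the 7 stage results under the block, 5 kept their direction and side of the threshold, or their count of genes. CXCL12 was at 0 UMIs in E70 microglia, so its fitted values there depend on the prior count. Thinning to 1000 UMIs lowered shares of cells, to 35.8%, 20.1% and 2.84% for CXCL12 in fibroblasts, endothelial and mural cells, 19.6%, 18.8% and 19.9% for CXCR4 in astroglia, interneurons and Cajal-Retzius cells, and 2.56%, 2.27% and 1.99% for ACKR3 in endothelial cells, excitatory neurons and interneurons. Depth limits nuclei most, where CXCL12 rests on 20 and 26 UMIs per library.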

Other observations

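Among classes not described above, cells with choroid plexus or ependymal markers, led by cilia genes such as RSPH1, carried CXCR4 at 100.9 CPM in their only library above 20 cells, E60_1, with a UMI in 40.1% of 876 cells (36.8 to 43.4) and 9.81% after thinning to 1000 UMIs. Glutamatergic neurons with the markers LHX9 and TCF7L2, nearly all from E50_1, stood at 49.2 CPM of CXCR4. Only 11.5% of these 555 cells had a UMI, while 1 cell held 26, so the transcript was concentrated in few of them. Their ACKR3 was 15.7 CPM.

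Oligodendrocyte precursors carried CXCR4 at 57.9 and 64.0 CPM in E60_1 and E60_2 and at 14.9 to 23.5 CPM in E50_1, E70_3 and E70_nc, and had 0 UMIs in the 195 nuclei of Adult_nc. Cells with Purkinje markers (225, mostly from E50_1) held 8.79 to 15.8 CPM of CXCR4 and 3.16 to 5.13 CPM of CXCL12 in 2 libraries. ACKR3 in mature oligodendrocytes ranged from 0 to 28.4 CPM over 3 libraries. An unnamed cluster of 578 cells led by PCP4, TAC1, CALB1 and SST held CXCR4 at 140 CPM (pooled over libraries) and CXCL12 at 21.6 CPM.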
